A study of Mus musculus with 12 samples.

Results

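Established induced pluripotent stem cells (iPSC) were compared with Stage 1 cells, which were taken at day 6 of reprogramming, by ATAC-seq, an assay in which a transposase cuts and tags DNA that is not covered by nucleosomes. The 3 iPSC and 3 Stage 1 libraries were chosen by their titles and make up 6 of the 12 libraries of the series, and all 115000 counted regions of the genome entered the comparison. Both groups had been sorted for Oct4-GFP, a reporter of the pluripotency gene Pou5f1, so the comparison sets what is open in a finished pluripotent line against what is open in day 6 cells that already carry the reporter signal. All groups share the mouse strain background Mixed (C57BL/6 x 129). The other libraries are 3 of unsorted mouse embryonic fibroblasts (MEF), the starting cells, and 3 of Oct4-GFP sorted Stage 2 cells, taken at day 6 followed by 4 further days. The labels name the procedure 3c enhanced reprogramming and do not say what 3c stands for. Whether the iPSC libraries came from 1 line or several, and whether replicates were separate cultures, is not stated in the labels, so the p-values below speak only for the scatter among the libraries at hand, part or all of which can be technical.

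Pluripotent cells keep their state through a network of transcription factors, among them Oct4 (Pou5f1), Sox2, Nanog and Esrrb, which bind enhancers and promoters and hold them free of nucleosomes. During reprogramming, fibroblast enhancers close and pluripotency enhancers open over several days, and some late markers are known to be activated only near the end. Chromatin accessibility near a gene is related to its activity but does not measure its expression.

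Total reads were between 23024328 and 26220683 in the iPSC libraries and between 14310290 and 18859828 in the Stage 1 libraries, of which 1034936 to 1331836 and 1065108 to 1531153 lay in the counted regions. Reads in regions made up 4.94% ± 0.395 of all reads in iPSC and 7.64% ± 0.415 in Stage 1 (SD, n = 3 each), without overlap between the groups (two-sided exact permutation test, p = 0.1, the smallest that 3 against 3 libraries allow). From the density of reads outside the regions, background alone would give 45.7% to 53.8% of the in-region reads in iPSC and 28.6% to 31.8% in Stage 1. A higher count in iPSC can therefore move with this background. Its expected level, or the number of rises at 2 times background or more, is given beside part of the results it touches. All 8 markers of pluripotent cells had counts of at least 2 times background in iPSC and in Stage 1. Of 8 fibroblast markers, 0 reached that level in iPSC, 2 in Stage 1 and 8 in MEF. The summed fibroblast marker level was 292 to 333 CPM (counts scaled to library size, TMM-adjusted) in iPSC, against 220 to 261 CPM in Stage 1. Relative to expected background the order was the other way, with a median over these markers of 1.25 times in iPSC and 1.35 times in Stage 1. The part of fibroblast markers in the results was not tested. For macrophage markers the sums were 169 to 175 CPM in iPSC and 198 to 216 CPM in Stage 1. For endothelial markers they were 119 to 138 CPM in iPSC and 92.5 to 108 CPM in Stage 1. In iPSC 1 of 5 macrophage and 1 of 4 endothelial genes were at 2 times background. The endothelial median was 0.934 times background in iPSC and 1.40 times in Stage 1, and the macrophage median was also lower in iPSC. In bulk libraries, fewer cells with an open region and a less open region in every cell cannot be told apart.

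Established iPSC gained accessibility at some regions and lost it at others in numbers that depend on the scaling and on which regions are tested. Of 71069 regions with enough reads, 6079 (8.55%) rose and 4964 (6.98%) fell in iPSC (edgeR quasi-likelihood test, Benjamini-Hochberg adjusted p under 0.05). Reads were scaled by the trimmed mean of M-values (TMM) over reads in regions. With scaling to all reads of a library, 1120 regions (1.58%) rose and 15742 (22.2%) fell, so that 23.7% were called instead of 15.5%, and the median log2 change of all regions was -0.52 instead of 0.15. The 4964 falls were all kept in that scaling, as were 1119 of the rises, and no region changed direction between the calls. Falls outnumbered rises in 5 of the 6 fits with a library left out: there were 3367 rises and 4882 falls without iPSC replicate 1, and 3442 and 5058 without iPSC replicate 2. Without Stage 1 replicate 1, 2 or 3 the rises were 3431, 3540 and 2933 and the falls 5288, 5358 and 4238. Without iPSC replicate 3 there were 4150 rises and 3409 falls. Falls were also the more numerous with median-of-ratios size factors (4937 rises and 6570 falls) and with DESeq2 (2368 and 3802), so which direction holds more regions is not settled by these counts.

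The study's own list of accessible intervals for each stage sorts these changes into kinds. Membership of the Stage 1 and iPSC lists rests on the same libraries, so the counts below describe the calls and do not test them. Regions on the iPSC list but not the Stage 1 list held 2727 rises and 0 falls among 6045 tested by edgeR; 2 fell at an unadjusted p under 0.05, 0 with DESeq2, 2 by limma after the background was taken off and 24 with scaling to all reads. Regions on the Stage 1 list but not the iPSC list held 2534 falls and 15 rises among 13260 tested. Among 20846 regions on both lists, 915 rose and 2341 fell. That balance turned to 1849 rises and 1253 falls after the expected background was taken off, and was 41 rises and 7704 falls with scaling to all reads. A further 2422 rises and 89 falls lay among 30918 regions on neither list. The pattern with the highest share of rises was presence on the Stage 2 and iPSC lists alone, where 1540 of 3007 regions rose (51.2%). The highest share of falls was in regions on the Stage 1 list alone, where 1226 of 4426 fell (27.7%).

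**Figure D1:**
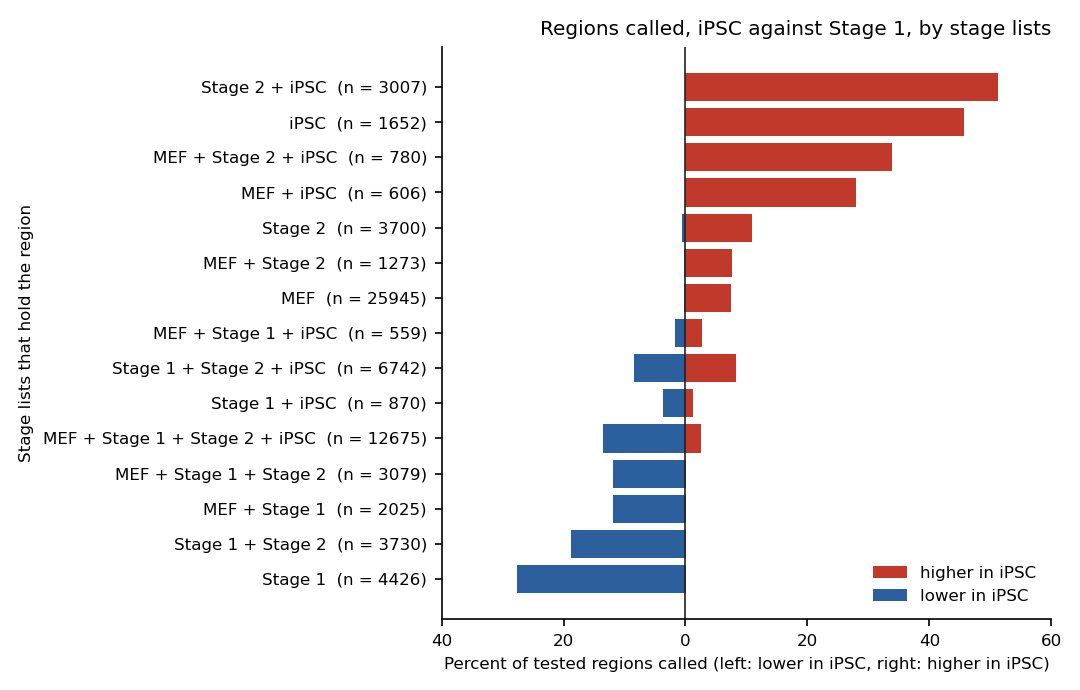
Percent of tested regions called lower (left, blue) or higher (right, red) in iPSC than in Stage 1, for each of 15 combinations of the 4 deposited stage lists, with TMM scaling. Regions on the iPSC list without the Stage 1 list rose in 27.9% to 51.2% of cases and those on the Stage 1 list without the iPSC list fell in 11.8% to 27.7%; with scaling to all reads of a library, rises shrink to 1120 and falls grow to 15742 over all patterns.

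Read density against background separates regions that are open from those that only carry background. In regions on the iPSC list alone, reads were 3.56, 3.88 and 3.31 times the background level in iPSC and 2.45, 2.74 and 3.07 times in Stage 1. In regions on the Stage 1 list alone they were 1.92, 2.04 and 1.68 times background in iPSC and 4.70, 5.30 and 5.66 times in Stage 1. The groups did not overlap in either class, which can follow from the choice of the regions, as both lists rest on these libraries. The iPSC-list regions were above background on day 6. They were so in MEF too, at 1.80, 1.42 and 1.22 times. Regions on the MEF list alone were at 0.944, 0.947 and 0.938 times background in iPSC and at 1.04, 1.05 and 1.10 times in Stage 1, against 8.27 ± 3.21 times in MEF (SD, n = 3). Absence from the other lists is part of how this class was chosen, so a level near background there is no finding. Its ratio was lower in every iPSC library than in every Stage 1 library. It held 1921 of the 6079 rises, which is 7.40% of its 25945 tested regions, where 8.55% of all tested regions rose. In a fit added after the data were seen, in which the expected background was taken off before limma's moderated test, 6620 regions (9.31%) rose and 4798 (6.75%) fell, 16.1% together, and 660 of these 1921 rises were kept, against 730 of 754 rises on the iPSC list alone.

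**Figure D2:**
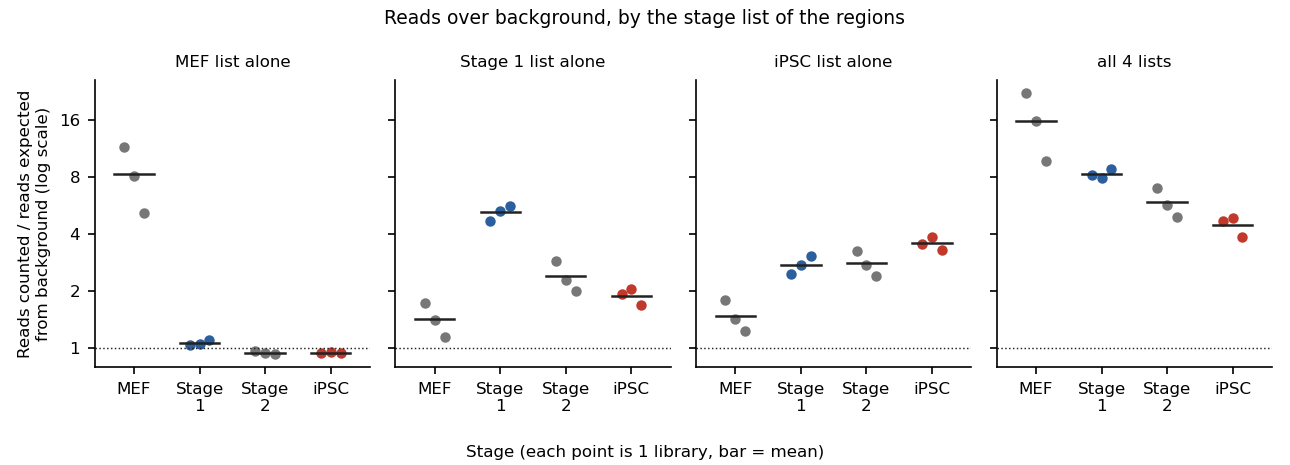
Reads counted divided by reads expected from background, on a log scale, for 4 classes of regions; each point is 1 library, bars are means and the dotted line marks background. Fibroblast-only regions sit near 1 in Stage 1, Stage 2 and iPSC, Stage 1-only regions are at 1.88 in iPSC against 5.22 in Stage 1, and iPSC-only regions at 3.58 in iPSC against 2.75 in Stage 1.

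The Stage 2 and MEF libraries shared the estimate of spread and the filter on low counts with the contrast. Without them 39196 regions were tested, of which 4961 rose and 4663 fell, and 3505 of the 6079 rises and 4452 of the 4964 falls were called again. Their levels at the called regions are given next. The 3642 rises on the iPSC list had a median of 14.7 CPM in iPSC, against 5.20 CPM in Stage 1, with 1.23 CPM in MEF and 11.3 CPM in Stage 2. Stage 2 lay nearer to iPSC than to Stage 1 on the log2 scale in 2781 of them (76.4%). The 4875 falls on the Stage 1 list had a median of 11.1 CPM in iPSC and 24.2 CPM in Stage 1, with 3.77 CPM in MEF and 15.7 CPM in Stage 2. Stage 2 lay nearer to iPSC in 2856 of these (58.6%). Of the rises 21.4% were also on the MEF list, where 54.4% of all tested regions on the iPSC list were. Of the falls 48% were on it, where 53.8% of all tested regions on the Stage 1 list were.

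Rises and falls called with TMM scaling differed in where they lay. The shares of rises and falls in this paragraph rest on those calls, which changed with the background step. On all 4 stage lists 817 of 1725 falls and 322 of 331 rises were called again after subtraction. On the Stage 1 list without the iPSC list 2224 of 2534 falls were. Only 14% of rises on the iPSC list were within 1 kb of a gene end and 10.5% overlapped a promoter, where 36.4% and 31.2% of all tested regions on that list did. Among falls on the Stage 1 list 33.7% were within 1 kb of a gene end and 29.9% overlapped a promoter, close to the 33.2% and 27.7% of all tested regions on that list. Promoters (250 bases before to 50 after the start, RefSeq, GRCm38.p6) held a median of 16 CpG dinucleotides at the 449 that overlap a rise on the iPSC list. The median was 23 at the 1975 that overlap a fall on the Stage 1 list, and 21 over all 14513 that overlap a tested region. The CCAAT box, CCAAT on either strand, was in 32.7% of the promoters with a rise, 50.7% of those with a fall, 38.1% of those with a tested region and 37.4% of all 32851 promoters. The ETS motif CCGGAAG, also on either strand, was in 6.68%, 18.7%, 17.1% and 8.86% of these sets. None of the 9 motifs searched is contained in another, and a match is a description of letters, not of a bound site.

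The 10 largest changes by fold, 5 in each direction, were taken among called regions without overlap between the groups and with a mean of at least 2 on the log2 CPM scale over the 6 libraries, and none overlapped a promoter (coordinates in mm10). The region chr16:76224901-76225500, which has no gene within 10 kb, had 21, 24 and 17 reads in iPSC and 1, 1 and 1 in Stage 1 (log2 change 4.36 ± 0.55 SE, edgeR adjusted p = 5.41e-09). The region chr17:22876801-22877250, within 10 kb of the zinc finger gene Zfp945, had 30, 15 and 25 reads in iPSC and 3, 1 and 1 in Stage 1. Every iPSC library was above every Stage 1 library in both, and Stage 2 held 25 and 77 reads in all. In the other direction, the region chr6:123646251-123646850 inside the vomeronasal receptor gene Vmn2r22 had 0, 0 and 4 reads in iPSC and 36, 35 and 53 in Stage 1 (log2 change -4.77 ± 0.49 SE, edgeR adjusted p = 3.57e-12). The region chr10:128980551-128981600, within 10 kb of the olfactory receptor gene Olfr9, had 9, 6 and 3 reads in iPSC and 79, 86 and 123 in Stage 1, and 238 in MEF. Both falls separate the groups, as 32.6% of all tested regions do in one direction or the other. The sums in the low group of these regions were below the level expected from background, for example 3 reads against 10.3 at the first region and 4 against 15.7 at Vmn2r22. With scaling to all reads of a library the 10 regions with the largest changes kept their direction and their call.

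For genes, counts were summed over all regions that overlap the gene or lie within 10 kb of it. A region can therefore count for several genes. All linked regions of Pou5f1, Tdgf1, Fosl1, Triml2, Sycp3, Chrd, Srf, Trp53, Rps19, Foxa1, Cd68 and Mylpf are also linked to another gene. So are 5 of 8 at Dppa5a, 5 of 7 at Lefty1 and 4 of 5 at Utf1. Of 17540 genes tested, 2291 (13.1%) rose and 2180 (12.4%) fell in iPSC by edgeR's test, and 38.9% of genes had no overlap between the 3 iPSC and 3 Stage 1 libraries. Called genes made up 25.5%. Without iPSC replicate 1, 2 or 3 or Stage 1 replicate 3 the falls numbered 1318, 1401, 1342 and 1336. With scaling to all reads of a library 84 rose (0.479%) and 9682 fell (55.2%), 55.7% together, and the median of all genes moved by -0.71 on the log2 scale. Directions below are therefore relative to the other reads in regions, and the value under the second scaling is given beside each list. After the background was taken off, 1757 genes (10%) rose and 1970 (11.2%) fell by limma's test, 21.2% together. Of these, 1434 rises and 1383 falls were also called without that step, and 10 genes were called in opposite directions. Of the edgeR calls, 1299 rises (7.41%) and 2174 falls (12.4%), 19.8% of genes, were at 2 times background or more in the higher group, and with only regions within 1 kb of a gene end 7.93% of 13751 genes rose and 7.66% fell, 15.6% together. Members given with values below belong to a fixed set of 18 genes or were picked by a rule. The rule took the largest changes among called members without overlap between the 3 iPSC and 3 Stage 1 libraries. Lack of overlap at genes picked by the rule therefore follows from the choice and adds no support. Other called members of a list are named because they were called.

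The core pluripotency factors did not move together. Of 20 tested, 2 rose (10%) and 4 fell (20%), with a median log2 change of 0.02, or -0.69 with scaling to all reads of a library. Over all genes tested 13.1% rose and 12.4% fell, shares to be set beside the counts of this and each later list. Pou5f1, whose reporter was used to sort both groups, had 89.0, 73.1 and 77.1 CPM in iPSC and 95.5, 83.0 and 96.0 CPM in Stage 1 (log2 change -0.20 ± 0.13 SE, edgeR adjusted p = 0.253), with overlapping groups. Sox2 had 48.4 ± 5.29 CPM in iPSC and 44.8 ± 9.26 CPM in Stage 1, and Esrrb 243 ± 8.97 CPM in iPSC and 217 ± 20.9 CPM in Stage 1 (SD, n = 3 each), neither of them called. With the background taken off Esrrb changed by 0.33 and was called as a rise (limma adjusted p = 0.0435), and Sox2 was not called. Within this list, Zfp42 (Rex1), a zinc finger gene that marks the late, naive state, rose. Its counts were 69.5, 78.6 and 51.4 CPM in iPSC and 28.3, 43.7 and 38.3 CPM in Stage 1 (log2 change 0.88 ± 0.19 SE, edgeR adjusted p = 0.000411). The call was lost with DESeq2 (adjusted p = 0.0506). Every iPSC library was above every Stage 1 library, Stage 2 averaged 68.3 CPM and MEF 2.88 CPM. Klf5, a Krüppel-like factor, was the other rise, at 0.46.

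Nanog, the homeodomain factor of naive pluripotency, fell. It had 120, 114 and 102 CPM in iPSC and 158, 161 and 145 CPM in Stage 1 (log2 change -0.46 ± 0.12 SE, edgeR adjusted p = 0.00199), without overlap. With the background taken off the change was -0.28 ± 0.13 SE and no longer called (limma adjusted p = 0.141). With only regions within 1 kb of a gene end it was -0.40, also not called (edgeR adjusted p = 0.209). Of its 4 tested regions 1 fell, chr6:122702251-122703350, with 87, 76 and 47 reads in iPSC and 139, 127 and 155 in Stage 1 (log2 change -0.92 ± 0.16 SE, edgeR adjusted p = 1.23e-05). Another of the Nanog regions rose. The falling region is on all 4 stage lists, that of MEF included. It averaged 53.9 CPM in iPSC, 103 CPM in Stage 1, 77.5 CPM in Stage 2 and 51.8 CPM in MEF. Sall4, a zinc finger factor, had 57.9, 45.9 and 45.7 CPM in iPSC and 70.1, 82.1 and 86.9 CPM in Stage 1 (log2 change -0.67 ± 0.16 SE, edgeR adjusted p = 0.00079). Its groups did not overlap, and the change was -0.71 and not called within 1 kb of a gene end (edgeR adjusted p = 0.0586). Tfap2c (-0.52) and Tbx3 (-0.49) completed the falls, and both lost the call in at least 1 fit with a library left out, Tbx3 without iPSC replicate 1 (edgeR adjusted p = 0.158) and Tfap2c without iPSC replicate 2 or 3 or Stage 1 replicate 3.

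Late pluripotency markers held 7 rises and 5 falls among 30 tested, with a median of 0.04, or -0.67 with scaling to all reads. Triml2, a tripartite motif family gene on chromosome 8, had 60.1, 54.4 and 65.6 CPM in iPSC and 30.6, 25.9 and 32.2 CPM in Stage 1 (log2 change 1.00 ± 0.18 SE, edgeR adjusted p = 2.76e-05). Dppa5a, which encodes an RNA-binding protein of pluripotent cells, had 148, 128 and 122 CPM in iPSC and 69.4, 81.2 and 69.9 CPM in Stage 1 (log2 change 0.87 ± 0.19 SE, edgeR adjusted p = 0.00196). With DESeq2 Dppa5a was not called (adjusted p = 0.0908). Both separated the groups, and 4 of the 8 regions of Dppa5a rose, among them chr9:78368801-78369800 with 51, 41 and 37 reads in iPSC and 14, 9 and 16 in Stage 1. Dppa4, a chromatin factor used as a late reprogramming marker, had 29.7, 33.4 and 27.6 CPM in iPSC and 13.4, 18.7 and 19.4 CPM in Stage 1 (log2 change 0.81 ± 0.24 SE, edgeR adjusted p = 0.00813). Its groups did not overlap, and leaving out Stage 1 replicate 1 ended the call (edgeR adjusted p = 0.0579). Pecam1 (0.86), Fgf17 (0.45), Lin28b (0.44) and Jam2 (0.42) were the other rises. Among the falls were Tdh (-0.70), a threonine dehydrogenase of mouse pluripotent cells, Alpl (-0.56), the alkaline phosphatase used to stain colonies, Zfp296 (-0.45) and Gdf3 (-0.35). Of the 12 calls, 5 rises and 2 falls held whichever library was left out. Dppa3, Utf1, Lin28a and Tdgf1 were not called, with log2 changes of -0.32, -0.28, -0.18 and -0.19. With scaling to all reads these 4 were called as falls, as 55.2% of all genes tested were. Within 1 kb of a gene end Dppa3 was called as a fall, at -0.92 (edgeR adjusted p = 0.0299).

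With scaling to all reads, Zfp42 (0.17), Triml2 (0.30), Dppa5a (0.15) and Dppa4 (0.11) kept a positive log2 change and lost the call. With the background taken off, the 4 genes changed by 1.21, 1.45, 1.23 and 1.15 and were called by limma.

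**Figure D3:**
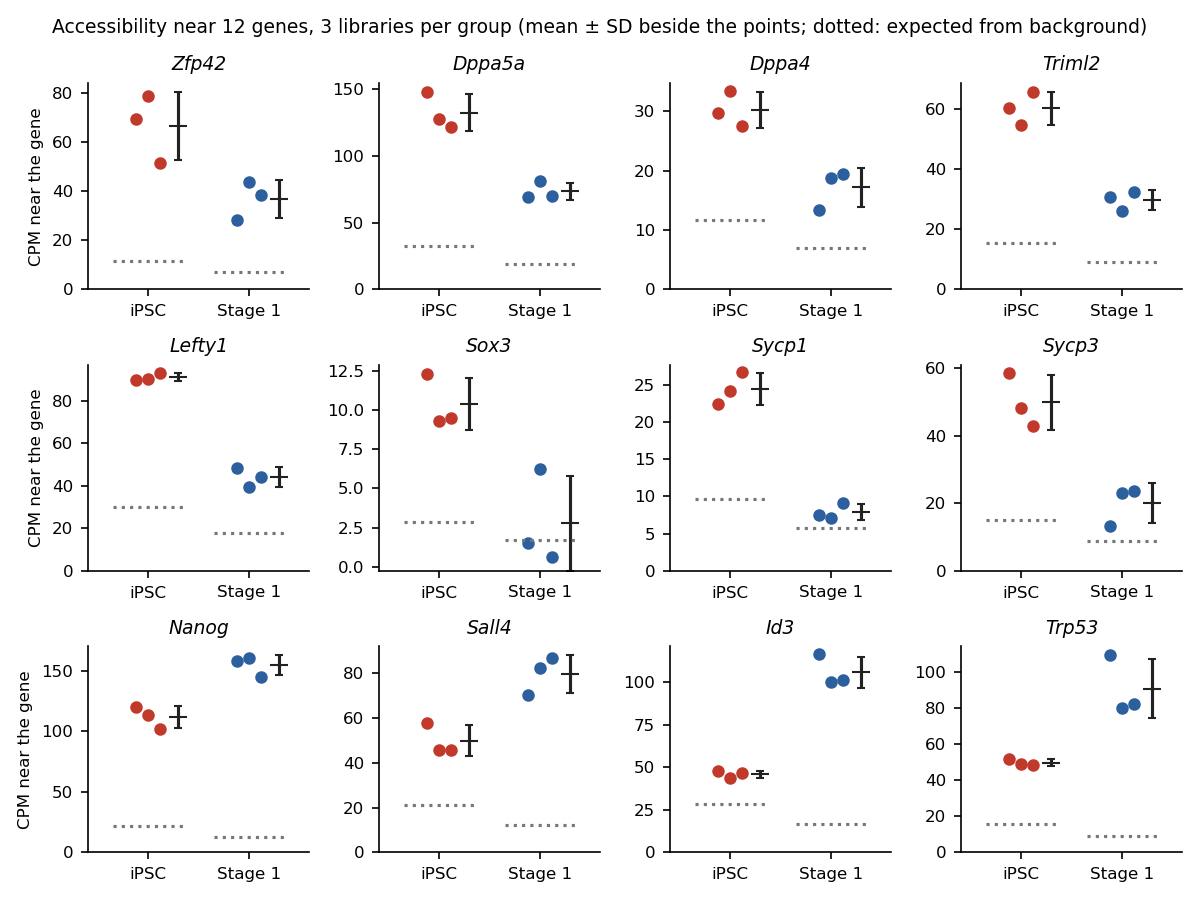
TMM-scaled CPM near 12 genes in 3 iPSC libraries (left) and 3 Stage 1 libraries (right), with mean ± SD beside the points and the level expected from background as dotted lines. The first 8 genes were higher and Nanog, Sall4, Id3 and Trp53 lower in every iPSC library than in every Stage 1 library. Genes outside the fixed set were picked among called genes without overlap between the groups. With scaling to all reads of a library, Sox3 and Sycp1 keep the call among the 8.

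Of the leukaemia inhibitory factor (LIF) pathway 7 genes were called, in both directions. LIF signals through the receptor chains Lifr and Il6st and the kinases Jak1 and Jak2 to the factor STAT3, whose targets include the feedback inhibitors Socs2 and Socs3 and the kinase Pim1. Of 18 tested genes 4 rose and 3 fell, with a median of 0.02, or -0.69 with scaling to all reads. The rises were Lifr (0.44), Il6st (0.38), Jak1 (0.43) and Jak2 (0.52), which changed by -0.28, -0.33, -0.28 and -0.18 with scaling to all reads. The falls were Pim1, Socs3 (-0.55) and Socs2 (-0.49), and they kept the call whichever library was left out. With only regions within 1 kb of a gene end 0 of 17 members fell and 3 rose, and Pim1 was at -0.50 (edgeR adjusted p = 0.0678). Pim1 had 43.4, 33.4 and 36.1 CPM in iPSC and 73.1, 53.5 and 52.9 CPM in Stage 1 (log2 change -0.66 ± 0.17 SE, edgeR adjusted p = 0.00197), without overlap. Among the rises, Lifr kept its call in all 6 fits with a library left out. Jak1 and Jak2 lost theirs without Stage 1 replicate 1 (edgeR adjusted p = 0.0602 and 0.0693), and Il6st without Stage 1 replicate 2 or 3 or iPSC replicate 2. With the background taken off, Lifr (0.66) and Il6st (0.67) were called by limma and the 2 kinases were not.

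Genes of the primed epiblast, the later pluripotent state that follows implantation, held 6 rises and 0 falls among 20 tested. At an unadjusted p under 0.05, with DESeq2 and by limma in the background-subtracted fit 0 also fell. With scaling to all reads 7 fell, where 55.2% of all genes tested did, and the list median was -0.54 instead of 0.17. Lefty1, a secreted inhibitor of Nodal, had 89.7, 90.2 and 93.2 CPM in iPSC and 48.5, 39.3 and 44.4 CPM in Stage 1 (log2 change 1.04 ± 0.15 SE, edgeR adjusted p = 1.11e-07). Sox3, a relative of Sox2 on the X chromosome, had 12.3, 9.33 and 9.51 CPM in iPSC and 1.49, 6.25 and 0.608 CPM in Stage 1 (log2 change 2.07 ± 0.51 SE, edgeR adjusted p = 0.00146). Both separate the groups. At Sox3 the background expected in Stage 1 was 1.69 CPM, above replicates 1 and 3 and well below replicate 2, at 6.25 CPM. Sfrp2 (0.71), Sox4 (0.68), Fgf5 (0.61) and Foxd3 (0.52) also rose, and leaving out Stage 1 replicate 1 ended the call of Fgf5 (edgeR adjusted p = 0.0791). With scaling to all reads Sox3 rose by 1.35 and was still called, and Lefty1 changed by 0.33 and was not.

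Germline and meiosis genes, many of which are silent in somatic cells and carry methylated promoters there, held 8 rises and 1 fall among 23 tested, with a median of 0.20, or -0.50 with scaling to all reads. Of the 8 rises, 5 were at 2 times background or more in iPSC. Sycp3, a component of the synaptonemal complex that pairs chromosomes in meiosis, had 58.6, 48.2 and 42.8 CPM in iPSC and 13.4, 23.2 and 23.7 CPM in Stage 1 (log2 change 1.32 ± 0.20 SE, edgeR adjusted p = 9.68e-07). Sycp1, another component of that complex, had 22.4, 24.1 and 26.6 CPM in iPSC and 7.46, 7.14 and 9.11 CPM in Stage 1 (log2 change 1.59 ± 0.29 SE, edgeR adjusted p = 2.07e-05). Both separated the groups, and Stage 1 was close to the expected background of 5.69 CPM at Sycp1. Mael (1.22), a factor of transposon silencing, Tex12 (0.84), a further synaptonemal protein, Rpl10l (0.74), a ribosomal protein gene of the testis, Brdt (0.55), a testis bromodomain gene, Ddx4 (0.49), the germ cell RNA helicase, and Kit (0.49), a receptor kinase, were the other rises. Tex14, needed for bridges between germ cells, fell by 0.52 on the log2 scale. Sycp3, Sycp1 and Mael kept their calls whichever library was left out, and the other 5 rises lost theirs in at least 2 of 6 such fits, up to an edgeR adjusted p of 0.319 for Brdt without Stage 1 replicate 1. After the background was taken off, 6 rose and 2 fell by limma's test, and Tex12 and Rpl10l were not among the rises.

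At 4 of these genes the rise included the promoter, whose sequences are shown because the regions over them opened on the iPSC list and were on neither the MEF nor the Stage 1 list. They are from RefSeq (GRCm38.p6), 5′ to 3′ on the strand of the gene, with capitals for every match on either strand to the 9 motifs searched: the E2F-like motif GCGGGAA, the E-box CACGTG, the CCAAT box, the ETS motif CCGGAAG, the octamer ATGCAAAT, the AP-1 motif TGANTCA, the TEAD motif GGAATG, the KLF motif GGGTGTGG and the CRE motif TGACGTCA.
Sycp3: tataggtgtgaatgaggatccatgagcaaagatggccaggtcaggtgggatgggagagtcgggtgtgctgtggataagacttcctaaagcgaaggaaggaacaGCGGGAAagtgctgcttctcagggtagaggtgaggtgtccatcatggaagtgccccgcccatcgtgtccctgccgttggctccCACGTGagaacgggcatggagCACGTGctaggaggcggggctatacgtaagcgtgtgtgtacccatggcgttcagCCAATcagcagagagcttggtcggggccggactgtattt
Ddx4: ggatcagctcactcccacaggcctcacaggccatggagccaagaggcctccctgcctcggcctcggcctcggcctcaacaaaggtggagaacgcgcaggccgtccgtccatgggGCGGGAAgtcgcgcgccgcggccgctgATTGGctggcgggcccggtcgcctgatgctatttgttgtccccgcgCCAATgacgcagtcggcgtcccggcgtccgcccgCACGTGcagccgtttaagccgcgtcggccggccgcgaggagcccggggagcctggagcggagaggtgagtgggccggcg
Mael: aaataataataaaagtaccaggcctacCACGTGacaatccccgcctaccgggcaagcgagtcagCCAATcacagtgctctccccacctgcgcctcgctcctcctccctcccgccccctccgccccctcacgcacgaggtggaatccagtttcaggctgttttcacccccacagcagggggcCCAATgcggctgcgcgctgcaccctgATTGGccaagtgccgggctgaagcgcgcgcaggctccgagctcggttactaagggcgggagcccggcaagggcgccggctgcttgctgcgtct
Rpl10l: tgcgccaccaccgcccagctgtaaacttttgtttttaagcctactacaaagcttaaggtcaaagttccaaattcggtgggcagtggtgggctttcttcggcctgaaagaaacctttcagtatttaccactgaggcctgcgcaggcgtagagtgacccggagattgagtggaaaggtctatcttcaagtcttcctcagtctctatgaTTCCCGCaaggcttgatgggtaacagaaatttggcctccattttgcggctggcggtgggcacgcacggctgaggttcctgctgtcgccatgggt

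The Sycp3 promoter (chr10:88459337-88459636, plus strand, 15 CpG) lies in a region with 34, 20 and 19 reads in iPSC and 3, 10 and 12 in Stage 1 (log2 change 1.63 ± 0.38 SE, edgeR adjusted p = 0.00113). At Ddx4 (chr13:112652261-112652560, minus strand, 38 CpG) the region had 21, 17 and 11 reads in iPSC and 11, 6 and 6 in Stage 1 (log2 change 1.18, edgeR adjusted p = 0.0238). In reads, the groups touch at 11 here and at 12 in the next. In CPM they separate here, with a lowest iPSC value of 9.99 and a highest Stage 1 value of 8.32. In the next they overlap, with 9.04 CPM in iPSC replicate 2 and 10.4 CPM in Stage 1 replicate 2. At Mael (chr1:166238695-166238994, minus strand, 24 CpG) it had 25, 12 and 16 reads in iPSC and 7, 12 and 6 in Stage 1 (log2 change 1.17, edgeR adjusted p = 0.0217). The Rpl10l promoter (chr12:66284352-66284651, minus strand, 13 CpG) was covered by 19, 19 and 13 reads in iPSC and 6, 1 and 10 in Stage 1 (log2 change 1.68, edgeR adjusted p = 0.00177). MEF held between 7 and 16 reads in all at each of the 4. The Sycp3 and Ddx4 promoters hold both the E2F-like motif and the E-box, a pair found in 0.457% of all promoters, in 0.848% of those that overlap a tested region and in 3 of the 449 with a rise on the iPSC list (0.668%). The genes were picked after their values were seen, so the pair is a description of these 2 sequences.

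TGF-beta and BMP pathway genes held 8 rises and 3 falls among 40 tested, with a median of 0.13, or -0.58 with scaling to all reads. In iPSC 5 of the 8 rises were at 2 times background or more. Id3, an inhibitor of basic helix-loop-helix factors and a direct target of BMP signalling, had the largest fall among the named genes. It had 47.8, 43.6 and 46.6 CPM in iPSC and 116, 99.9 and 101 CPM in Stage 1 (log2 change -1.20 ± 0.14 SE, edgeR adjusted p = 6.67e-10), with 4 of its 5 regions falling. The groups were far apart, Stage 2 averaged 77.6 CPM and MEF 118 CPM. The Id3 promoter was in one of the falling regions, with 21, 10 and 11 reads in iPSC and 30, 22 and 42 in Stage 1 (log2 change -1.05, edgeR adjusted p = 0.00392). Smad5 (-0.65) and Smad4 (-0.50), signal transducers of the pathway, also fell. Both lost the call in fits with a library left out, for example without iPSC replicate 1 (edgeR adjusted p = 0.0737 and 0.0893). Chrd, which encodes the BMP antagonist chordin, had 34.7, 28.0 and 48.5 CPM in iPSC and 14.2, 15.2 and 15.8 CPM in Stage 1 (log2 change 1.27 ± 0.23 SE, edgeR adjusted p = 2.27e-05), without overlap. Tgfbi (0.92), Ltbp1 (0.63), Inhba (0.63), Smad1 (0.57), Smad3 (0.52), Bmp2 (0.44) and Bmpr1b (0.43) rose as well. Bmp2 lost the call in 3 fits with a library left out, up to an edgeR adjusted p of 0.0902 without Stage 1 replicate 1. Smad1 lost it without Stage 1 replicate 3 (edgeR adjusted p = 0.0549) and Smad3 without iPSC replicate 3 (edgeR adjusted p = 0.0571). Tgfbi and Smad3 were at about 1.0 times their expected background in iPSC.

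Wnt effectors and targets held 10 rises and 4 falls among 37 tested, with a median of 0.18, or -0.53 with scaling to all reads. Of the 10 rises, 5 were at 2 times background or more in iPSC. Dkk3, a secreted Dickkopf family member, had 44.9, 63.0 and 68.5 CPM in iPSC and 26.9, 25.9 and 26.7 CPM in Stage 1 (log2 change 1.13 ± 0.18 SE, edgeR adjusted p = 2.28e-06). Background alone would give 39.8 CPM in iPSC and 23.6 CPM in Stage 1 at Dkk3, which kept its call after subtraction (limma adjusted p = 0.0032). Myc, a growth regulator and one of the classic reprogramming factors, had 120, 113 and 109 CPM in iPSC and 82.1, 88.3 and 82.6 CPM in Stage 1 (log2 change 0.44 ± 0.12 SE, edgeR adjusted p = 0.00381), and -0.27 with scaling to all reads. Within 1 kb of a gene end Myc changed by 0.17 and was not called (edgeR adjusted p = 0.553). Both separated the groups. Cdx1 (0.95) and the feedback inhibitor Nkd2 (0.99) were further rises. The falls were Wnt8a (-0.87), Cdx2 (-0.51), Axin2 (-0.32), a feedback inhibitor, and Gsk3b (-0.32), the kinase that marks beta-catenin for decay. All 4 lost the call in at least 2 of the fits with a library left out, Axin2 up to an edgeR adjusted p of 0.536 without Stage 1 replicate 3, and 6 of the 10 rises kept theirs in all 6.

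Genes of DNA methylation and its removal held 1 rise and 5 falls among 16, with a median of -0.16, or -0.86 with scaling to all reads. Tet2, an enzyme that oxidises methylated cytosine, had 214, 237 and 186 CPM in iPSC and 283, 313 and 323 CPM in Stage 1 (log2 change -0.53 ± 0.09 SE, edgeR adjusted p = 1.45e-05), without overlap. Uhrf1 (-0.41), Tdg (-0.40), Mbd3 (-0.37) and Trim28 (-0.36) fell, and Tet1, the related oxidase, rose (0.41). Tet2 alone kept its call both with any library left out and with the background taken off (limma adjusted p = 0.0276). Its gene lies on chromosome 3 and 2 of its 9 tested regions fell. With only regions within 1 kb of a gene end its change was -0.0080 and not called (edgeR adjusted p = 0.980).

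Senescence barrier genes held 1 rise and 3 falls among 16, with a median of -0.02, or -0.73 with scaling to all reads. Trp53, which encodes the tumour suppressor p53, had 52.1, 49.0 and 48.5 CPM in iPSC and 110, 80.3 and 82.6 CPM in Stage 1 (log2 change -0.86 ± 0.14 SE, edgeR adjusted p = 4.84e-06). All 3 of its regions fell, all 3 are also linked to a neighbouring gene, and Stage 2 averaged 83.6 CPM. The p53 targets Sesn2 (-0.64) and Cdkn1a (-0.55), a cell cycle inhibitor, fell and Zmat3 (0.51) rose. Sesn2 and Trp53 kept the call with any library left out. Zmat3 lost it without iPSC replicate 3 or Stage 1 replicate 3 (edgeR adjusted p = 0.0896 and 0.0867), and Cdkn1a lost it in 3 fits, for example without Stage 1 replicate 1 (edgeR adjusted p = 0.131). Ribosomal protein genes, which are active in all cells, held 1 rise and 7 falls among 50, with a median of -0.20, or -0.92 with scaling to all reads. Of the 8 calls only that of Rps19 held with any library left out. Rps19 had 55.0, 65.3 and 44.7 CPM in iPSC and 94.0, 80.3 and 78.4 CPM in Stage 1 (log2 change -0.60 ± 0.14 SE, edgeR adjusted p = 0.000733). With the background taken off, 4 ribosomal protein genes rose and 4 fell by limma's test.

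Epithelial genes, which are switched on early in reprogramming, held 5 rises (13.9%) and 6 falls (16.7%) among 36. Over all genes tested 13.1% rose and 12.4% fell. The list median was -0.03, or -0.74 with scaling to all reads. Pard6b, a cell polarity gene, had 33.3, 40.4 and 39.95 CPM in iPSC and 63.4, 60.7 and 59.5 CPM in Stage 1 (log2 change -0.70 ± 0.16 SE, edgeR adjusted p = 0.000838). The region over its promoter had 38, 36 and 27 reads in iPSC and 70, 59 and 88 in Stage 1 (log2 change -1.001, edgeR adjusted p = 5.99e-05). Tjp1, which encodes the tight junction protein ZO-1, had 194, 183 and 177 CPM in iPSC and 107, 128 and 124 CPM in Stage 1 (log2 change 0.63 ± 0.10 SE, edgeR adjusted p = 4.22e-06). Neither gene's groups overlap, and with scaling to all reads Tjp1 changed by -0.08. Tjp1 stood at 1.97 times background in iPSC. Cdh1, the E-cadherin gene, had 110 ± 15.7 CPM in iPSC and 119 ± 9.92 CPM in Stage 1 (SD, n = 3 each) and was not called. In iPSC 2 of the 5 rises were at 2 times background or more. Only 1 of the 5 rises and 2 of the 6 falls kept the call with any library left out.

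Mesenchymal and fibroblast genes held 16 rises and 3 falls among 50, with a median of 0.27 in iPSC, which was -0.43 with scaling to all reads. Of the 16 rises, 2 were at 2 times background or more in iPSC, and with the background taken off 8 members rose and 6 fell by limma's test. Thy1, a fibroblast surface marker, had 26.8, 21.8 and 35.2 CPM in iPSC and 10.4, 16.95 and 13.97 CPM in Stage 1, where background alone would give 22.0 CPM in iPSC and 13.1 CPM in Stage 1. Meox1 had 20.3, 14.8 and 19.98 CPM in iPSC and 8.95, 7.14 and 6.08 CPM in Stage 1, with 17.8 CPM expected in iPSC and 10.5 CPM in Stage 1. The iPSC means were 1.27 and 1.03 times the expected background, and neither gene was called by limma after subtraction (limma adjusted p = 0.154 and 0.263). Prrx2 had 33.3, 28.0 and 40.9 CPM in iPSC and 23.1, 11.6 and 8.51 CPM in Stage 1, with 24.2 CPM expected in iPSC and 14.3 CPM in Stage 1. It kept its call after subtraction (limma adjusted p = 0.0153). Twist1 (1.03) and Pdgfra (0.70), which stood at 3.1 and 2.9 times background in iPSC, were the rises above 2 times background. The falls were Dcn (-1.08), a matrix proteoglycan gene, Snai1 (-0.78), a repressor of E-cadherin, and Osr1 (-0.72). Their call held after subtraction, with changes of -2.63, -2.01 and -1.42, and in the unsubtracted fit Dcn lost it without iPSC replicate 1 (edgeR adjusted p = 0.116), iPSC replicate 3 (0.0714) or Stage 1 replicate 3 (0.0868). Col1a1 and Twist2 were not called (0.17 and 0.54). Within 1 kb of a gene end Twist2 was called as a rise, at 1.41 (edgeR adjusted p = 0.0163). Over all its linked regions Twist2 stood at 0.71 times background in iPSC.

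AP-1 and other somatic transcription factors held 6 rises and 3 falls among 36, with a median of 0.15, or -0.55 with scaling to all reads. In iPSC 3 of the 6 rises were at 2 times background or more. Srf, the serum response factor, had 34.0, 34.2 and 42.8 CPM in iPSC and 58.9, 58.9 and 51.6 CPM in Stage 1 (log2 change -0.61 ± 0.17 SE, edgeR adjusted p = 0.00357), without overlap. Nfatc1, a calcium-regulated factor, had 102, 98.8 and 119 CPM in iPSC and 51.5, 66.0 and 70.5 CPM in Stage 1 (log2 change 0.75 ± 0.14 SE, edgeR adjusted p = 2.03e-05), at 1.6 times background in iPSC. Within 1 kb of a gene end it changed by 0.35 and was not called (edgeR adjusted p = 0.447). Fosl1, the AP-1 subunit Fra-1, had 48.7 ± 3.31 CPM in iPSC and 52.5 ± 3.13 CPM in Stage 1 (SD, n = 3 each) and was not called. The other rises were Cebpd (0.55), Nfix (0.54), Ets1 (0.43), Egr2 (0.34) and Nfic (0.29), and the other falls Egr1 (-0.44) and Tead1 (-0.30). With single libraries left out Cebpd lost the call in 5 of 6 fits, Nfic and Egr1 in 4 and Egr2 and Tead1 in 2, up to an edgeR adjusted p of 0.456 for Egr1 without Stage 1 replicate 1.

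Regulators of the germ layers held more rises than falls in iPSC with TMM scaling. They held 0 rises with scaling to all reads of a library, where 0.479% of all genes tested rose. Neural ectoderm genes held 6 rises and 0 falls among 26, with a median of 0.32, or -0.39 with scaling to all reads. Definitive endoderm genes held 5 and 0 among 15, with a median of 0.36, or -0.34. Mesoderm genes held 6 and 2 among 18, with a median of 0.24, or -0.47, and primitive endoderm genes 7 and 1 among 19, with a median of 0.42, or -0.30. Rises at 2 times background or more in iPSC numbered 5 in the neural, 5 in the definitive endoderm, 3 in the mesoderm and 4 in the primitive endoderm list. With the background taken off, limma called 5 rises and 0 falls in the neural list, 4 and 0 in the definitive endoderm list, 4 and 1 in the mesoderm list and 3 and 1 in the primitive endoderm list. In the neural and definitive endoderm lists 1 member each fell by edgeR at an unadjusted p under 0.05, and 0 with DESeq2. With scaling to all reads, 5, 3, 4 and 3 members fell in these lists, where 55.2% of all genes tested fell. The sign of all 4 medians therefore rests on the scaling. Each of them lay above the median of all genes in that scaling, -0.71.

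Pax6, a regulator of eye and brain development, had 169, 180 and 151 CPM in iPSC and 90.3, 91.0 and 107 CPM in Stage 1 (log2 change 0.79 ± 0.11 SE, edgeR adjusted p = 1.44e-07). Foxa1, a pioneer factor of endoderm, had 50.7, 53.7 and 47.6 CPM in iPSC and 27.6, 29.4 and 28.6 CPM in Stage 1 (log2 change 0.83 ± 0.18 SE, edgeR adjusted p = 0.000279). Both separated the groups, stood at over 4 times their expected background in iPSC and had lower means in MEF, 33.7 and 11.97 CPM. Neurod1 (0.70), Neurog2 (0.49), Lhx2 (0.41), Olig1 (1.09) and Pax3 (0.65) were the other neural rises, and the groups overlap at Olig1. Hhex (0.76), Gata4 (0.69) and Onecut1 (0.49) rose in the endoderm list, as did Afp (1.17), whose groups overlap. Meox1, Kdr (1.07), Mesp2 (0.89), Foxc1 (0.72), Hand2 (0.61) and Isl1 (0.37) rose among mesoderm genes, while Tbx6 (-0.50) and Tbx20 (-0.35) fell. With single libraries left out Tbx20 lost the call in 5 of 6 fits, Mesp2 and Tbx6 in 4, Olig1, Pax3 and Hhex in 3, Isl1 in 2 and Hand2 and Lhx2 in 1. Pax3 was also not called with DESeq2 (adjusted p = 0.0622) or by limma after subtraction (adjusted p = 0.204), and Pax6 changed by 0.68 within 1 kb of a gene end (edgeR adjusted p = 0.0517). Pax3 and Meox1 stood at 1.49 and 1.03 times background in iPSC. Col4a1, a basement membrane collagen gene of the primitive endoderm list, had 97.0, 88.7 and 95.1 CPM in iPSC and 44.8, 60.7 and 56.5 CPM in Stage 1, close to the 87.4 CPM in iPSC and 51.8 CPM in Stage 1 that background would give. Amn (-0.79) was the fall of that list and lost the call in all 6 fits with a library left out (edgeR adjusted p from 0.0575 to 0.115). Trophectoderm genes held 3 rises (16.7%) and 2 falls (11.1%) among 18, where 13.1% and 12.4% of all genes tested rose and fell. The list median was 0.17, or -0.54 with scaling to all reads. Dlx3 (1.05) and Gcm1 (0.90) rose beside Krt7, and Cdx2 and Tfap2c fell. Of these 5 Krt7 alone kept the call in all 6 such fits. Krt7, a keratin gene, had 26.0, 24.9 and 37.1 CPM in iPSC and 5.22, 13.4 and 11.5 CPM in Stage 1 (log2 change 1.53 ± 0.27 SE, edgeR adjusted p = 1.42e-05). Background alone would give 16.3 CPM in iPSC and 9.70 CPM in Stage 1 at Krt7, which kept its call after subtraction (limma adjusted p = 0.00111).

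Among markers of cell types not sought in these cultures, endothelial markers held 6 rises and 0 falls among 16, with a median of 0.27. With scaling to all reads the median was -0.44 and 5 fell, where 55.2% of all genes tested did. Fli1, an ETS factor of blood and endothelium, had 82.5, 95.7 and 80.9 CPM in iPSC and 41.0, 44.6 and 32.2 CPM in Stage 1 (log2 change 1.16 ± 0.15 SE, edgeR adjusted p = 2.45e-08), at 2.3 times background in iPSC. Cldn5 (1.11), Kdr (1.07), Pecam1 (0.86), Robo4 (0.48) and Tek (0.46) were the others, of which Robo4 lost the call in 3 and Tek in 2 fits with a library left out; Pecam1 is also a late pluripotency marker of mouse cells. At an unadjusted p under 0.05 1 endothelial marker fell by edgeR, as 1 did by limma after subtraction, and 0 with DESeq2. Blood markers held 0 rises and 1 fall, Cd68, among 15, and 0 rises also by limma after subtraction and with DESeq2, with 1 within 1 kb of a gene end and 2 at an unadjusted p under 0.05. Skeletal muscle markers held 1 and 1 among 10, Pax3 and Mylpf (-0.66), and neural crest markers 3 and 0 among 7, the rises being Mitf (0.48), Pax3 and Foxd3, with 0 falls also at an unadjusted p under 0.05, by limma and with DESeq2. Hox cluster genes held 4 rises and 1 fall among 38, with a median of 0.21, or -0.49 with scaling to all reads, and only Hoxd13 (0.59) kept its call whichever library was left out. Imprinted genes held 3 rises (12.5%) and 4 falls (16.7%) among 24, with a median of 0.09, or -0.62, where 13.1% and 12.4% of all genes tested rose and fell. Of the imprinted genes, Zdbf2 (0.58) and Peg3 (-0.52) kept the call with any library left out. Zim1 (-0.66), the largest fall, lost it without iPSC replicate 1 (edgeR adjusted p = 0.0573).

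**Figure D4:**
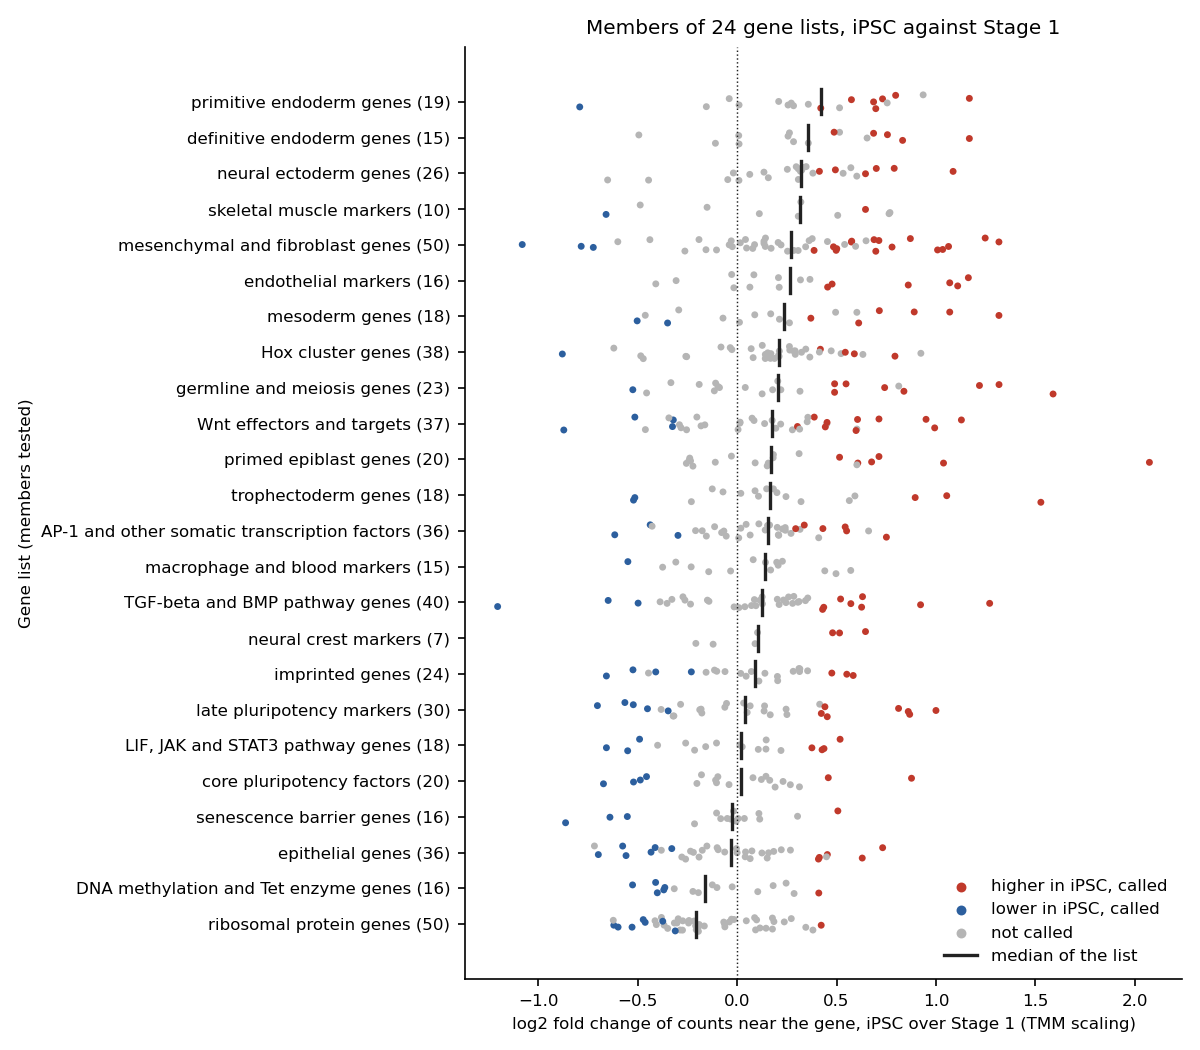
Log2 fold change, iPSC over Stage 1 with TMM scaling, of every tested member of 24 gene lists; red and blue points were called higher or lower in iPSC, grey ones were not called, and bars are list medians. Medians run from -0.20 for ribosomal protein genes to 0.42 for primitive endoderm genes; with scaling to all reads of a library all 24 medians are negative, from -0.92 to -0.30.

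The X chromosome held a smaller share of reads in iPSC and more falls than rises, where the autosomes together held more rises. Reads on X made up 1.72%, 1.84% and 1.70% of in-region reads in iPSC and 1.92%, 2.05% and 2.08% in Stage 1. The groups do not overlap (exact permutation test, two-sided, p = 0.1), with means of 2.06% in Stage 2 and 1.78% in MEF. In regions on the MEF list alone, which were at background in both groups, X held 1.22%, 1.26% and 1.22% of reads in iPSC and 1.39%, 1.55% and 1.57% in Stage 1. Of 1422 X regions tested, 70 rose (4.92%) and 153 fell (10.8%), where on autosomes 8.63% rose and 6.90% fell. Chromosomes 4, 7 and 11 also held more falls than rises. The median log2 change was -0.15 on X and 0.15 on autosomes, a difference of -0.30 that was -0.29 with scaling to all reads. It was -0.27 in regions on the MEF list alone, -0.16 in regions on both the Stage 1 and iPSC lists, and -0.08 after the background was taken off. The sex of the cells was not given in the labels.

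**Figure D5:**
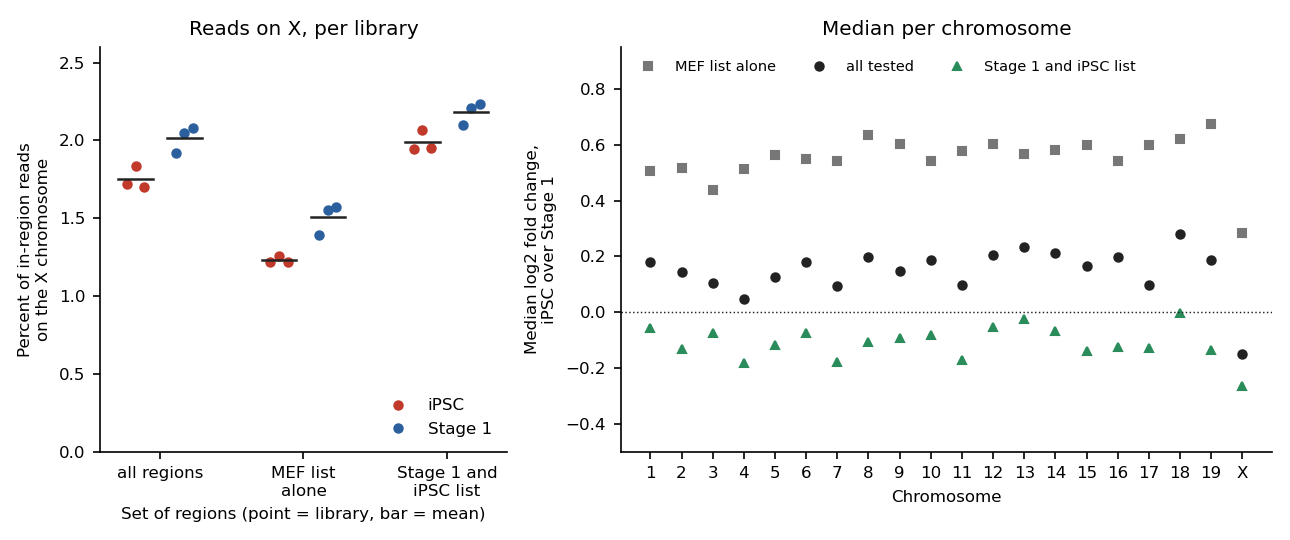
Left, percent of in-region reads on the X chromosome in each iPSC and Stage 1 library for 3 sets of regions, with means as bars; right, median log2 fold change, iPSC over Stage 1 with TMM scaling, of the tested regions of each autosome and X, without Y. In each set the 3 iPSC libraries lie below the 3 Stage 1 libraries, and X has the lowest median of the chromosomes drawn.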

How the data were processed

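ATAC-seq libraries of iPSC, Stage 1, Stage 2 and MEF, 3 each, were used. The deposited counts are raw reads per region over 115000 common regions, with 5 summary rows that name no region and stayed out of library sizes and tests; ambiguous reads were at most 0.0743% in the compared libraries. The submitters' processing notes name build mm10 and the tools HTSeq 0.5.4p3, DESeq2 1.12.4, Bowtie2 2.2.6, SAMtools 0.1.19 and Picard 2.6.0, without their settings; peak caller and cut-site shift are not given in the sources used here. The deposited stage lists hold intervals present in all 3 replicates.

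From these counts, edgeR 4.0.16 (R 4.3.3) fitted 1 quasi-likelihood model of the 4 groups with TMM scaling, after filterByExpr (minimum count 10, minimum total 15). Calls had a Benjamini-Hochberg adjusted p under 0.05. Gene values are sums over regions within 10 kb of a protein-coding gene span (RefSeq, GRCm38.p6, the same assembly as mm10), so a region can count for several genes. Of 628 list members, 8 matched no gene. Alternatives used other scalings, filters, DESeq2 1.42.0, thinning, a replicate block, single libraries left out and, added after the data were seen, a 2 times background minimum and limma 3.58.1 on log2 values after expected background was subtracted, with 2 added to each value. The models were run on simulated data with known changes. For edgeR these data held no difference in background between iPSC and Stage 1, so they cannot show how that fit behaves under such a difference. Replicate numbers did not pair the libraries.

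Named genes are 18 fixed genes plus the called, non-overlapping members with the largest change, 2 in each of 8 lists and 1 in each of 16. Members and lists were chosen with earlier results of these data known. One called member of the late pluripotency list is not reported here.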

Additional observations from a re-analysis of the deposited data

How the results depend on the processing

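The balance of rises and falls changed with several settings. Scaling to all reads of a library gave 1120 region rises and 15742 falls, and 84 gene rises and 9682 falls, so rises were 6.64% instead of 55.0% of region calls and 0.860% instead of 51.2% of gene calls. DESeq2 called 2368 region rises and 3802 falls and 1405 gene falls, thinning gave 4003 region rises and 4808 falls, median-of-ratios size factors 4937 and 6570, and no filter on low counts 4365 and 7106. A log2 change of at least 1 left 2746 region falls, 432 gene rises and 137 gene falls. Regions within 1 kb of a gene end gave 1090 gene rises and 1054 gene falls, and 1299 gene rises were at 2 times background. Leaving out 1 library gave 2933 to 4150 region rises, with more falls than rises in 5 of 6 fits, and 1318 to 1915 gene falls. With the replicate block, 5672 regions rose and 4831 fell, and 2310 genes rose and 2204 fell; the pairing correlations were 0.0313, 0.0262 and -0.0223.

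The difference of the X and autosome medians was -0.19 with 6 libraries, -0.17 in regions on the Stage 1 or iPSC list, -0.16 on both lists and -0.077 after background subtraction. With a 5 kb window the share near a gene end was 24.96% of rises on the iPSC list, 46.5% of falls on the Stage 1 list, 23.2% of rises on neither list, 48.4% of tested regions on the iPSC list, 47.0% of those on the Stage 1 list and 34.0% of all.

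Log2 changes that turned sign with scaling to all reads were Sox2 (-0.59), Esrrb (-0.54), Klf4 (-0.56), Myc (-0.27), Twist2 (-0.17), Col1a1 (-0.53), Tjp1 (-0.079) and Pax3 (-0.060). Within 1 kb of a gene end they were Pou5f1 (0.55), Sox2 (-0.047), Cdh1 (0.042) and Col1a1 (-0.19), and on the Stage 1 or iPSC list Col1a1 (-0.074) and Fosl1 (0.054). Falls called only with scaling to all reads, where 55.2% of all genes fell, were Pou5f1 (-0.91), Utf1 (-0.99), Lin28a (-0.88), Tdgf1 (-0.89), Cdh1 (-0.81) and Fosl1 (-0.82). Dppa3 was called as a fall there (-1.02) and within 1 kb of a gene end (-0.92), where Twist2 was called as a rise (1.41). After background subtraction Esrrb was called as a rise (0.33). With single libraries left out Sox2 ran from -0.0070 to 0.28, Lin28a from -0.25 to 0.010 and Cdh1 from -0.16 to 0.049. The causes were not tested. Precision is limited by 1034936 to 1531153 reads in regions per library, of which background could supply up to 53.8% in iPSC and 31.8% in Stage 1.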

Other observations

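The gene Cdkn2a has separate promoters for its products, and the regions over them moved in opposite directions. The region over the promoter window chr4:89282143-89282442 (minus strand) had 77 reads in iPSC and 33 in Stage 1 in all (log2 change 1.31, edgeR adjusted p = 0.00191). The region over the window chr4:89294570-89294869 (minus strand) had 146 reads in iPSC and 221 in Stage 1 (log2 change -0.50, edgeR adjusted p = 0.0401). Both were looked at after their values were seen. Reads on the Y chromosome made up 0.0248%, 0.0339% and 0.0299% of in-region reads in iPSC and 0.0374%, 0.0429% and 0.0370% in Stage 1, with means of 0.0396% in Stage 2 and 0.00916% in MEF.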
